A study of Homo sapiens with 6 samples.

Results

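The control arm of the series is described here: 3 libraries of polyA RNA from neurons grown from a human induced pluripotent stem cell (iPSC) line, out of 6 libraries in all. The members were taken by their labels, control replicates 1 to 3, and the PEDS1 knockout libraries of the same series were not compared. The line is the UCSFi001-A-derived control line, genotype control, with a doxycycline-inducible NGN2 gene at the AAVS1 safe-harbor locus that every cell of the series carries. Neurons were induced with doxycycline, replated after 3 days and matured in BrainPhys medium with SM1, BDNF, NT-3, laminin and doxycycline, and the series places them at day 10 to 14. The 3 libraries share 1 source name and 1 batch label, so whether they came from separate cultures or clones cannot be told apart, and the spread given is that between these libraries, which may be technical.

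NGN2 (gene NEUROG2) is a basic helix-loop-helix factor that starts neuronal differentiation in the embryo. When it is switched on in pluripotent cells, they leave the cell cycle and become neurons without a long progenitor stage. Such cultures are known as a source of mainly excitatory neurons, which release glutamate loaded into vesicles by the transporters SLC17A6 and SLC17A7.

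The recovered reads were 25275584, 30887946 and 44573013 in control replicates 1, 2 and 3. The table held 16625 genes, each with at least 10 reads in 3 or more of the 6 libraries, and a listed gene without a row is written as not in the table used here. The deposited value is a read count divided by 1 size factor for each library, named normalized count below, in which 1 read is worth 1.09, 0.885 and 0.617 in control replicates 1, 2 and 3. Because longer transcripts give more reads, genes were ranked against each other only per length. The length-scaled level divides the normalized count by the summed length of the gene's exons in GENCODE 29 and scales each library to a sum of 1000000 over the 16051 genes with a length, and it is written TPM. Ranks of genes below are those with this length. Errors are SD over the 3 control libraries.

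The 5 marker genes of neurons are described first. They were chosen with earlier results of these data known, so their levels are no independent check of the label. NEFM, the medium neurofilament subunit (chromosome 8, bases 24913012 to 24919098 of GRCh38), had 3795, 3869.7 and 3818 TPM in control replicates 1, 2 and 3. MAP1B, a microtubule-associated protein of growing axons (chromosome 5, bases 72107234 to 72209570), had 1110.1, 1095 and 1273 TPM. TUBA1A, the main alpha-tubulin of young neurons (chromosome 12, bases 49184796 to 49189324), had 3647, 3648 and 3774 TPM. The 3 libraries lay close together in NEFM and TUBA1A, and control replicate 3 was the highest in MAP1B. SLC17A7, the vesicular glutamate transporter VGLUT1 (chromosome 19, bases 49429401 to 49442360), had 121, 120.3 and 107 TPM, lowest in control replicate 3. ELAVL4, the neuronal RNA-binding protein HuD (chromosome 1, bases 50048014 to 50203786), had 119.9, 121 and 134 TPM, highest in control replicate 3. Over its principal transcript alone ELAVL4 had 353 TPM. All 5 were above the median of all genes, 17.8 TPM, in each of the 3 libraries.

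Levels ran over a wide range. The lowest gene had 0.0428 TPM and the highest 17234 TPM, with quartiles of 4.12 and 51.7 TPM. Of the 16051 genes, 14728 (91.8%) averaged 1 TPM or more, 9896 (61.7%) averaged 10 or more, and 2028 (12.6%) averaged 100 or more. The 74 genes at 1000 TPM or more held 24.5% of the summed level, and the 100 highest held 26.8%. The number of genes at 100 TPM or more was 2031, 2029 and 2042 in control replicates 1, 2 and 3.

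Transcripts of the mitochondrial genome led the table. Of the 20 highest genes by TPM, 14 were encoded there, led by MT-ND4, a subunit of respiratory complex I, at 17234 TPM and MT-RNR2, the large mitochondrial ribosomal RNA, at 16412 TPM. Genes of the mitochondrial genome made up 12.9%, 12.4% and 12.1% of the summed level in control replicates 1, 2 and 3. The share was highest in control replicate 1 and lowest in control replicate 3.

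Of the 20 highest genes outside the mitochondrial genome, 10 were on the lists of the cytoskeleton and growth cone. TMSB10, which binds actin monomers, had 9205, 9088 and 9024 TPM. NNAT, a small membrane protein of the developing nervous system, had 8165, 7673 and 7184 TPM and was lowest in control replicate 3. STMN2, which destabilizes microtubules in growing axons, had 4417, 4606 and 4885 TPM and was highest in control replicate 3. IGFBPL1, a relative of the insulin-like growth factor binding proteins, followed with 3880.4, 4102 and 4215 TPM. Their order against NEFM and TUBA1A depended on the length: over longest transcripts TUBA1A had 4938 TPM, STMN2 3691 TPM and IGFBPL1 3046 TPM. ACTG1, cytoplasmic gamma-actin, averaged 3431 ± 267 TPM. GAP43, a growth cone protein, averaged 2709 ± 35.5 TPM.

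**Figure D1:**
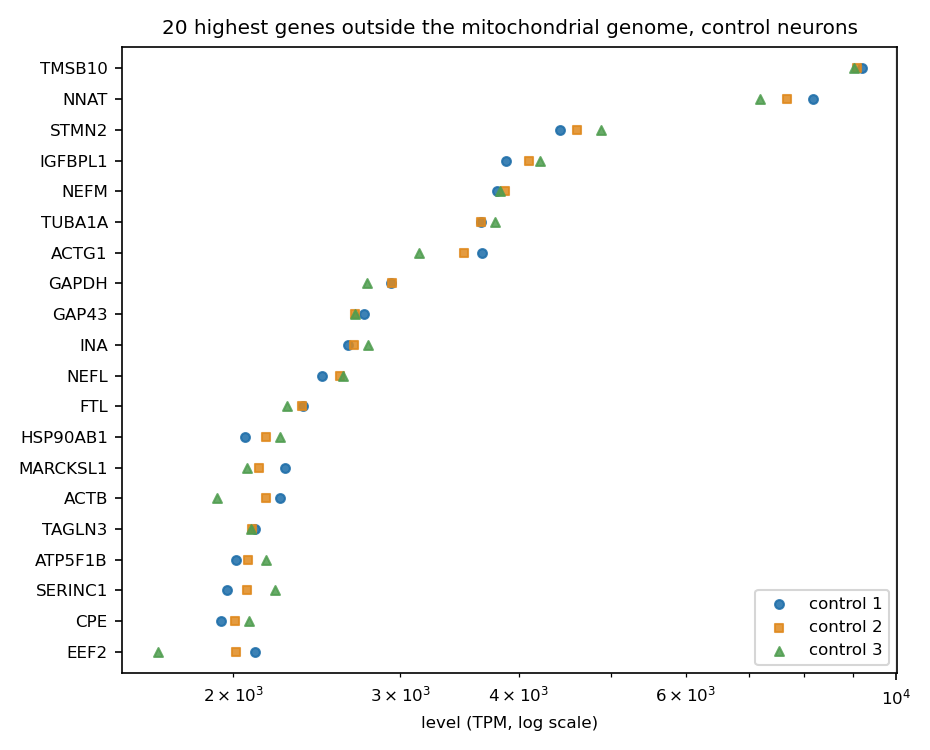
Level in TPM (log axis) of the 20 highest genes outside the mitochondrial genome, 1 point for each control library. TMSB10 and NNAT lie apart from the rest, and in most rows the 3 points lie close together compared with the distance from TMSB10 at 9106 TPM to EEF2 at 1928 TPM.

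By normalized count, which also grows with transcript length, the order differed and 10 genes were on both lists of 20. NEFM had the highest normalized count outside the mitochondrial genome, 107855, 108525 and 106570.1 in control replicates 1, 2 and 3. GNAS, the stimulatory G protein alpha subunit, had 93802, 93136 and 97259. MAP1B had 90966, 88492 and 102442, with control replicate 3 above the other two. KIF5C, a kinesin that carries cargo along axons, had 72315, 75051 and 78564. The list also held SYT1, the calcium sensor of vesicle release, APP, the amyloid precursor protein, and the filament genes NEFL and INA. The level of a gene depends on which length is used: GNAS had 1108 TPM over all its exons and 4846 TPM over its principal transcript, and TMSB10 had 9106 TPM over all exons and 2188 TPM with the median transcript length. With that median length NEFM had 1605 TPM and NNAT 2213 TPM.

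Of the 40 genes on the pan-neuronal list, 39 had a level and RBFOX1 was not in the table used here. Their median was 512 TPM, against 17.8 TPM over all genes and 24.5 TPM over protein-coding genes outside the mitochondrial genome. In all, 35 of the 39 averaged 100 TPM or more. The neurofilament genes NEFL, NEFM and INA summed to 8922, 9142 and 9203 TPM in control replicates 1, 2 and 3. NEFH, the heavy subunit that is added to axons as they mature, had 13.8, 14.6 and 14.9 TPM. NEFM exceeded NEFH 274, 265 and 257 times in control replicates 1, 2 and 3. RBFOX3, the nuclear antigen NeuN of mature neurons, averaged 27.6 ± 2.62 TPM. DCX, a microtubule protein of migrating young neurons, averaged 395 ± 21.4 TPM. SYP, a vesicle membrane protein, averaged 744 ± 15.5 TPM.

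The lowest member of that list was TUBB3, the beta-tubulin whose protein is a common stain for neurons. TUBB3 (chromosome 16, bases 89921392 to 89938761) had 10.2, 8.92 and 7.81 TPM in control replicates 1, 2 and 3, and 15.1 TPM on average with its longest transcript as the length. Of the 100-base windows in its principal transcript, 89.0% also occur in a transcript of AC092143.1, another annotated gene. Reads that lie in such windows cannot be assigned to 1 of the 2 genes, and the labels do not say how the counting treated them. The level of TUBB3 is therefore uncertain, and the part of shared sequence in it was not tested.

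Genes of microtubule-associated and growth cone proteins had a median of 451 TPM over 22 of 22, and those of the actin cytoskeleton 217 TPM over 21 of 22. MARCKSL1 and BASP1, membrane proteins of the growth cone, averaged 2154 ± 101 TPM and 1301 ± 24.5 TPM. MAP7 was the lowest of the growth cone list at 7.84 TPM. MAP1B exceeded MAP2, the microtubule protein of dendrites, 2.12, 2.03 and 2.18 times in control replicates 1, 2 and 3, and with median transcript lengths the ratio of their means was 0.994.

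The tubulin list had a level for 13 of 19 listed genes. TUBA1A led at 3689 TPM, followed by TUBB at 1814 TPM and TUBB2B at 690.1 TPM. TUBA1A exceeded its near copy TUBA1B 11.9, 11.6 and 11.9 times in control replicates 1, 2 and 3. With the other lengths tried, the ratio of their means was 9.60 to 18.9. Of the 100-base windows, 18.3% in TUBA1A and 37.2% in TUBA1B also occur in another gene, so the size of this ratio is uncertain. TUBB2A, the neighbour and near copy of TUBB2B, had 604, 574 and 592 TPM, and TUBB2B had 735, 686 and 649 TPM. The 2 genes encode proteins that differ at 2 residues, and 24 of the 1335 coding bases differ. The first 100 coding bases of the 2 genes are shown because reads of that length have few letters to go by (GENCODE 29 transcripts on GRCh38, minus strand of chromosome 6, capitals mark the bases of TUBB2A that differ from TUBB2B).
TUBB2B: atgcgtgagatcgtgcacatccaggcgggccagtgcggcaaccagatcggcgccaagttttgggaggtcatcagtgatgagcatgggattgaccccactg
TUBB2A: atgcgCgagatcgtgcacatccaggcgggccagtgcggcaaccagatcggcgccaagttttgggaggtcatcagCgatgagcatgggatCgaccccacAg
Between them 4 of the 100 bases differ, and 65.9% of the 100-base windows of the TUBB2B coding sequence also occur in that of TUBB2A. TUBB2B was above TUBB2A in each library, but how reads of the shared windows were divided between them is not known, so that order is uncertain.

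CALM2 and CALM3 give the opposite case. They encode the same calcium-binding protein with different codons, so reads of their coding parts can be told apart. CALM3 had 1489, 1493 and 1433 TPM and CALM2 had 911, 956 and 1006 TPM in control replicates 1, 2 and 3. Over these summed exons CALM3 was the higher of the 2 in each library. The first 100 coding bases show how far they differ (GENCODE 29, GRCh38, coding strand, capitals mark bases that differ from CALM3).
CALM3: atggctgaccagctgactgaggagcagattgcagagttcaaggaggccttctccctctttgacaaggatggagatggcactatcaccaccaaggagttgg
CALM2: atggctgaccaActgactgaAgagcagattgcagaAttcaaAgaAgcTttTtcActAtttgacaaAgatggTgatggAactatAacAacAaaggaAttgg
CALM2 differs from CALM3 at 16 of these bases. Over the 447 coding bases, 81.7% were identical between CALM3 and CALM2 and none of the 100-base coding windows was shared between them. The order of the 2 genes turned with the length: over principal transcripts CALM2 had 3080 TPM and CALM3 1527 TPM.

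**Figure D2:**
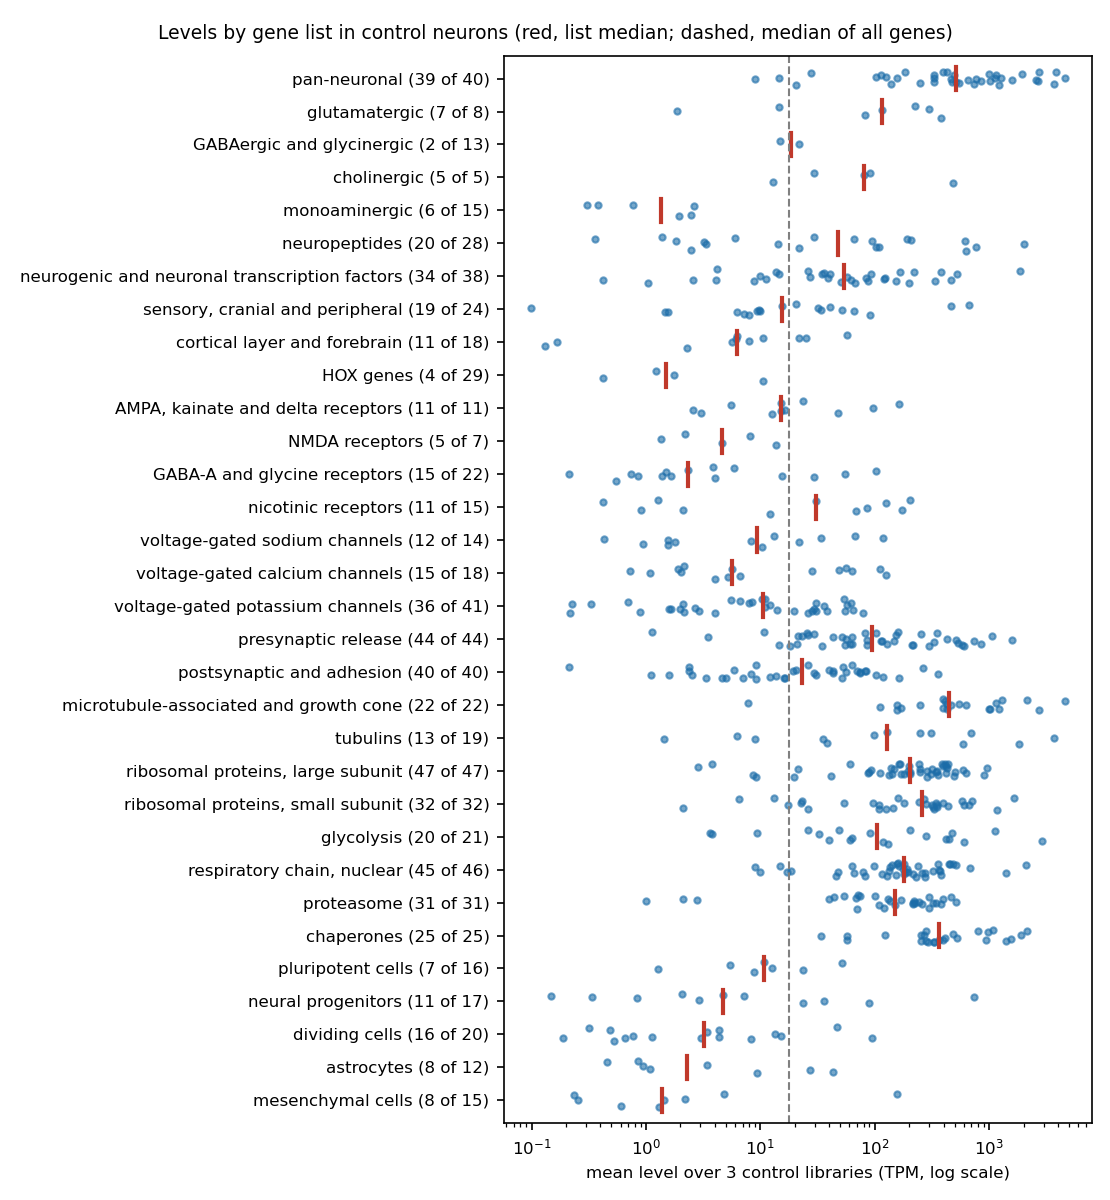
Mean level over the 3 control libraries (TPM, log axis) of each listed gene with a level, by list, with the number of members that had a level. Blue points are genes, red bars list medians and the dashed line the median of all genes, 17.8 TPM. The pan-neuronal median lies at 512 TPM, and the monoaminergic and HOX medians lie at 1.35 and 1.49 TPM.

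Among transmitter genes, 2 of the 3 vesicular glutamate transporters had a level and those that make and load GABA were not in the table used here. SLC17A6, the vesicular transporter VGLUT2, had 216, 223 and 233 TPM in control replicates 1, 2 and 3, above SLC17A7 in each library by 1.79, 1.85 and 2.17 times. SLC17A8 was not in the table used here. The 2 transporters summed to 340 ± 3.18 TPM. With the other lengths tried, SLC17A6 had 180.0 to 251 TPM and SLC17A7 had 74.98 to 176 TPM. The ratio of their means was 1.18 with longest or principal transcripts and 3.35 with median transcript lengths. SLC38A1 and SLC38A2, which take up glutamine, averaged 380.0 and 298 TPM. Of 13 GABA and glycine genes, SST, the somatostatin precursor, averaged 21.99 ± 4.14 TPM and ABAT, which breaks down GABA, 14.9 ± 0.624 TPM. The other 11, with GAD1, GAD2 and SLC32A1 among them, were not in the table used here.

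All 5 genes on the cholinergic list had a level of 10 TPM or more. The highest was ACLY, an enzyme of acetyl-CoA supply that is not particular to cholinergic neurons, at 487 TPM. CHAT, which makes acetylcholine, had 29.9, 28.7 and 29.04 TPM. SLC18A3, its vesicular transporter, had 97.8, 82.1 and 60.3 TPM, with control replicate 1 highest and control replicate 3 lowest. SLC5A7, which takes up choline, averaged 13.0 ± 0.662 TPM. ACHE, which breaks acetylcholine down, averaged 90.3 ± 13.8 TPM. Of 15 monoaminergic genes 6 had a level, none of them at 10 TPM, and DDC, the decarboxylase of dopamine and serotonin synthesis, was highest at 2.66 TPM. In bulk RNA of this kind, fewer cells of a type and less RNA for each cell cannot be told apart.

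Among peptide genes, a processing enzyme and granule proteins led. CPE, which trims peptide precursors, had 1943, 2006 and 2080.0 TPM. The granule proteins SCG2, SCG3 and CHGA averaged 776, 630.0 and 618 TPM. The highest peptide precursor was NTS, of neurotensin, at 109.9 ± 3.36 TPM. PENK, of the enkephalins, was lowest of the 20 listed genes with a level, at 0.359 TPM.

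Of 38 neurogenic and neuronal transcription factors 34 had a level, and 27 averaged 10 TPM or more. NHLH1, a helix-loop-helix factor of newborn neurons, was highest with 1875, 1837 and 1879 TPM. ONECUT3, a homeobox factor, averaged 528 ± 21.2 TPM. POU4F1, known for its role in sensory neurons, had 451, 456 and 475 TPM. SOX4 averaged 383 ± 8.57 TPM. NEUROG2 had 377, 339 and 304 TPM, highest in control replicate 1 and lowest in control replicate 3. Whether its reads came from the transgene or the gene on chromosome 4 cannot be told apart. With the median transcript length NHLH1 had 448 TPM.

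Of 24 genes known from sensory, cranial and peripheral neurons, 19 had a level, with a median of 15.4 TPM, against 17.8 TPM over all genes. Of the 19, 10 averaged 10 TPM or more and 9 less, down to 0.0987 TPM. RUNX3, SCN10A, MRGPRX1, HAND2 and GATA3 were not in the table used here. P2RX3, an ATP-gated channel of sensory neurons, had 657, 667 and 675 TPM, and 383 TPM on average with the median transcript length. DRGX, a factor of dorsal root ganglia, had 67.2, 64.4 and 66.7 TPM. Of 18 cortical and forebrain genes, 11 had a level with a median of 6.31 TPM, and LMO4 was the highest at 57.7 TPM. In all, 4 averaged 10 TPM or more, the others being CUX1 at 24.9 TPM, CUX2 at 21.9 TPM and TLE4 at 10.6 TPM. EOMES, FEZF2, EMX1, EMX2, OTX1 and LHX2 were not in the table used here. TBR1 averaged 0.130 TPM, from a mean normalized count of only 8.05. Of 29 HOX genes, which mark positions along the body axis, 4 had a level, and HOXB2 was highest at 10.6 ± 0.408 TPM.

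Of 101 neurotransmitter receptor genes 69 had a level, with a median of 5.59 TPM. In all, 29 averaged 10 TPM or more and 7 averaged 100 or more. The highest of these 101 was GABBR1, a subunit of the metabotropic GABA-B receptor, with 372, 378 and 376 TPM. P2RX3, the ATP-gated channel named above at 666 TPM on average, was on neither these lists nor the channel lists below. GABBR2, the partner subunit of GABBR1, had 101, 95.8 and 101 TPM, and GABBR1 exceeded it 3.70, 3.95 and 3.73 times. All 11 AMPA, kainate and delta subunits had a level. GRIK5, a kainate receptor subunit, led them with 178, 167 and 144 TPM, lowest in control replicate 3. Among AMPA subunits, GRIA4 had 93.3, 95.4 and 102 TPM, and GRIA2, which sets calcium permeability, had 15.4, 17.2 and 16.8 TPM. GRIA4 exceeded GRIA2 6.06, 5.56 and 6.07 times in control replicates 1, 2 and 3. NMDA receptor subunits were low: GRIN2D led with 15.6, 13.3 and 11.97 TPM, and GRIN1, the subunit every NMDA receptor needs, had 2.34, 2.42 and 1.81 TPM.

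Of 22 GABA-A and glycine receptor genes 15 had a level. GABRA3 had 49.6, 55.5 and 59.1 TPM, highest in control replicate 3. GLRA2, the glycine receptor subunit of embryonic neurons, averaged 29.6 ± 1.12 TPM. GABRB2 was the lowest of the 15 at 0.213 TPM. Nicotinic acetylcholine receptor genes reached higher levels, with a median of 30.7 TPM over the 11 of 15 that had one. CHRNA3, known from autonomic ganglia, had 198, 204 and 214 TPM. CHRNB3 had 166, 168 and 188 TPM, and CHRNB2 averaged 125 ± 1.23 TPM. CHRNA3, CHRNA5 and CHRNB4, which lie in 1 gene cluster, averaged 205, 85.5 and 68.9 TPM. CHRNA1, the muscle subunit, was lowest at 0.421 TPM.

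Metabotropic receptors for glutamate and acetylcholine were sparse. GRM2, a presynaptic glutamate receptor, averaged 35.7 ± 3.38 TPM and was the 1 of 6 measured GRM genes at 10 TPM or more. CHRM4 averaged 20.4 ± 1.71 TPM and was the 1 of 3 measured muscarinic genes at that level.

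Among 31 monoamine receptor genes 16 had a level and 5 averaged 10 TPM or more. DRD2, the dopamine D2 receptor, was the highest with 112, 110.4 and 103 TPM. HTR7 and HTR3A, serotonin receptors, averaged 42.6 and 40.1 TPM. Of the receptors for the growth factors in the medium, NTRK2, which binds BDNF, averaged 19.8 ± 1.56 TPM and NTRK3, which binds NT-3, 15.8 ± 0.897 TPM. NTRK2 was above NTRK3 in all 3 libraries, by 1.26, 1.22 and 1.29 times, but with median transcript lengths the ratio of their means turned to 0.298. SORT1, a sorting receptor that also binds neurotrophin precursors, averaged 75.1 ± 3.88 TPM.

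**Figure D3:**
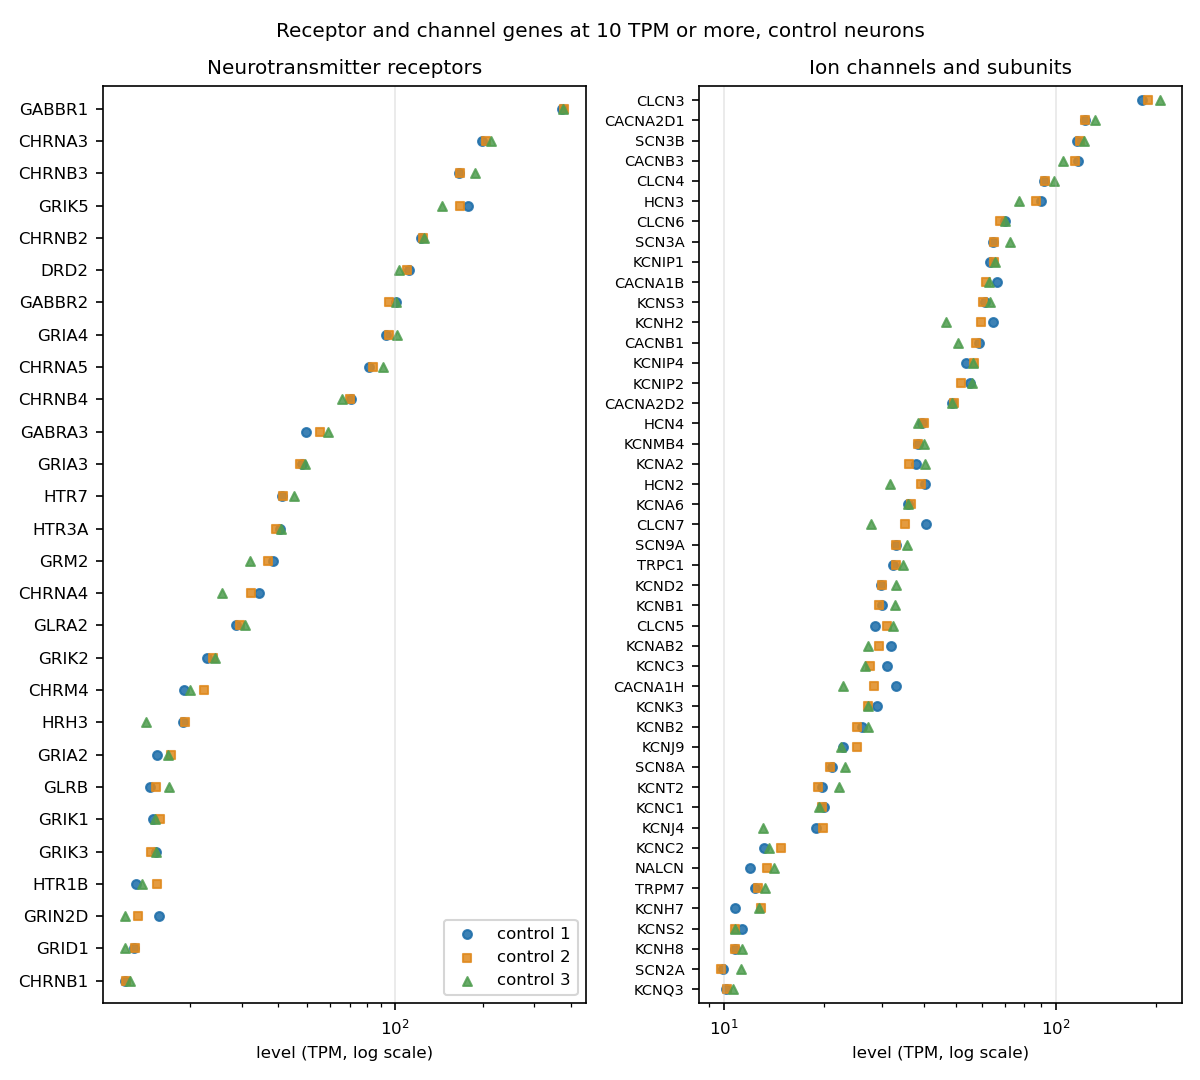
Level in TPM (log axes) of the genes on the neurotransmitter receptor lists (left) and the channel lists (right) reported here that averaged 10 TPM or more, 1 point for each control library. Among the genes of these 2 sets of lists, the receptors run down from GABBR1 at 375 TPM and the channels from CLCN3 at 193 TPM. In some rows, such as CLCN7 and KCNH2, control replicate 3 lies below the other two libraries.

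Of 128 channel genes 103 had a level, with a median of 7.95 TPM. In all, 46 averaged 10 TPM or more and 4 averaged 100 or more. These 4 were CLCN3, a chloride-proton exchanger of vesicles, at 193 TPM, CACNA2D1, an auxiliary calcium channel subunit, at 125 TPM, SCN3B, a sodium channel beta subunit, at 119 TPM, and CACNB3, a calcium channel beta subunit, at 112 TPM. None of the 4 forms the pore of a voltage-gated channel. Among pore-forming sodium channel genes, SCN3A, the form of embryonic neurons, had 64.4, 65.0 and 72.7 TPM and SCN2A had 9.92, 9.80 and 11.3 TPM. SCN3A exceeded SCN2A 6.49, 6.63 and 6.46 times, and 2.58 times over principal transcripts. SCN1A, prominent in the mature brain, was the lowest of the list at 0.430 TPM.

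CACNA1B, the N-type calcium channel of nerve endings, averaged 63.4 ± 2.51 TPM. Of 41 voltage-gated potassium channel genes 36 had a level, with a median of 10.6 TPM, and KCNIP1, an auxiliary subunit, averaged 64.5 ± 1.21 TPM. HCN3 and HCN4, pacemaker channels, averaged 84.99 ± 6.65 TPM and 39.2 ± 0.826 TPM. Of 32 further potassium channel genes, inward rectifier, tandem-pore and calcium-activated ones, 20 had a level and 5 averaged 10 TPM or more. KCNMB4, an auxiliary subunit of the calcium-activated channel, was the highest of them at 38.9 ± 0.916 TPM, and KCNK3, a leak channel, averaged 27.7 ± 1.03 TPM. The chloride exporter SLC12A5 (KCC2) had 9.78, 8.33 and 8.34 TPM, and the importer SLC12A2 (NKCC1) had 8.95, 8.61 and 9.21 TPM. Their ratio was 1.09, 0.968 and 0.905, so SLC12A5 was above SLC12A2 in 1 of 3 libraries and the levels do not differ beyond the spread, although with median transcript lengths the ratio of their means was 5.15. ATP1B1, the beta subunit of the sodium pump, had 748, 788 and 829.7 TPM.

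All 44 presynaptic genes and all 40 postsynaptic genes had a level. The presynaptic median was 94.0 TPM and the postsynaptic median 23.4 TPM. SYT1 had 1500.3, 1578 and 1663 TPM, and SNCG, gamma-synuclein, had 1174, 1097 and 926 TPM. SYT1 was highest in control replicate 3, where SNCG was lowest. VAMP2, the vesicle SNARE protein, averaged 853 ± 15.8 TPM, and SV2A 605 ± 8.73 TPM. On the postsynaptic side CACNG4 and CACNG7, auxiliary subunits of AMPA receptors, had 373, 359 and 333 TPM and 293, 269 and 234 TPM. DLG4, the scaffold PSD-95, averaged 163 ± 7.51 TPM. CAMK2A, the kinase of mature excitatory synapses, had 1.91, 1.42 and 1.497 TPM, while CAMK2G averaged 73.7 TPM.

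The lists of housekeeping genes, which every cell uses, held 239 genes outside the mitochondrial genome, of which 236 had a level, with a median of 196 TPM. All 79 ribosomal protein genes had a level, and together they made up 2.26%, 2.28% and 2.26% of the summed level in control replicates 1, 2 and 3. With principal transcripts as the lengths their share was 3.91%. RPS12 averaged 1172 ± 27.8 TPM and RPS4X 715 ± 33.3 TPM. GAPDH, of glycolysis, had 2930.2, 2943 and 2768 TPM, and ENO2, the neuronal enolase, was above ENO1 in each library by 1.83, 1.82 and 1.89 times. The chaperone genes had a median of 367 TPM, led by HSP90AB1 at 2155 TPM. The medians were 186 TPM over 24 of 25 translation factors, 149 TPM over 31 of 31 proteasome genes and 105 TPM over 20 of 21 glycolysis genes. EEF2, the translocation factor of the ribosome, led the first of these lists at 1928 ± 233 TPM, and PSMA7, a core particle subunit, the proteasome genes at 510.1 ± 18.2 TPM. The 13 respiratory genes of the mitochondrial genome held 10.4 ± 0.302% of the summed level, and the median of the 45 nuclear ones was 179 TPM. Common reference genes ran from GAPDH down to B2M at 15.4 TPM and SDHA at 9.88 TPM.

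A few of these genes were listed at very low levels. Of the 236 genes 16 averaged under 10 TPM. Of the 20 that share 50% or more of their 100-base windows with another gene, 10 averaged under 10 TPM and 10 averaged 10 TPM or more (the genes named here were chosen after their values were seen). EIF4A1, a translation initiation helicase, had 3.60, 3.35 and 2.53 TPM and shares 100% of its windows. RPS10 had 1.78, 2.40 and 2.14 TPM and shares 92.4%, most of it with the read-through gene RPS10-NUDT3. ALDOA, the aldolase of glycolysis, had 4.54, 3.56 and 2.697 TPM and shares 81.0%. The median was 246 TPM over the 160 housekeeping genes that share under 5%, 30.1 TPM over the 14 that share 50% to 75%, and 3.38 TPM over the 6 that share 75% or more. HK2, a hexokinase, averaged 3.79 TPM with 2.73% of its windows shared, and 3 more of the 16 share under 5%. EEF1G and NDUFV2, which share 93.4% and 80.9%, were not in the table used here. Among all protein-coding genes the medians were 26.4 TPM over 11832 genes that share under 5% and 1.82 TPM over 202 that share 75% or more. The labels do not say which annotation was counted, so the levels of these genes are uncertain and the part of shared sequence was not tested.

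**Figure D4:**
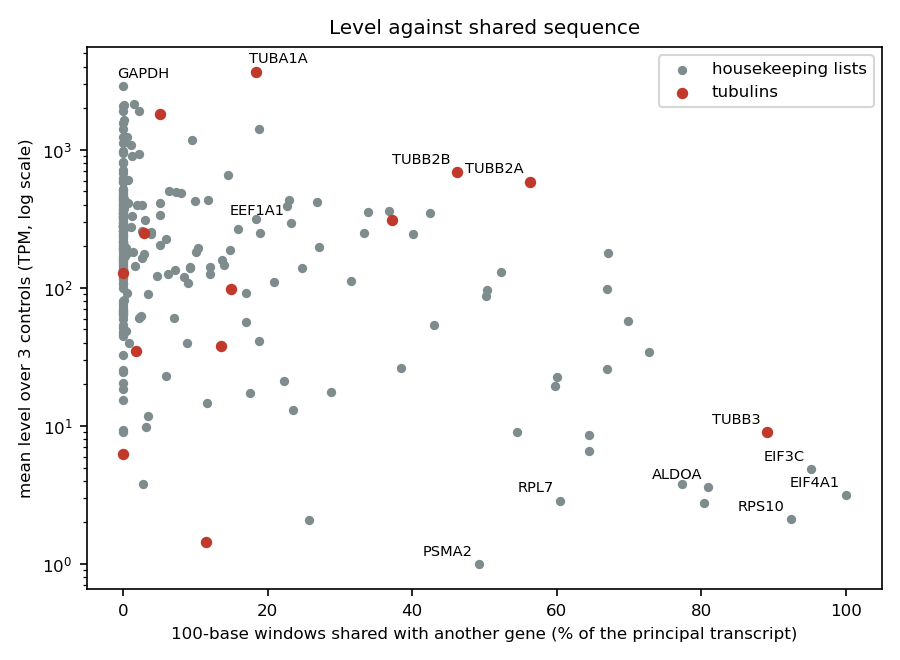
Mean level over the 3 control libraries (TPM, log axis) against the share of 100-base windows of the principal transcript that also occur in another gene, for the housekeeping lists (grey) and the tubulins (red). All 6 housekeeping genes at 75% or more lie under 10 TPM, and TUBB3 at 89.0% lies beside them at 8.97 TPM.

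Markers of other cell types were checked in the same libraries. Of 129 such genes 63 had a level, with a median of 2.19 TPM, and 66 were not in the table used here. Their levels summed to 1550.4, 1588 and 1531 TPM in control replicates 1, 2 and 3. Of the 30 defining markers 13 had a level, 4 of them at 10 TPM or more, and 17 were not in the table used here. POU5F1 and NANOG of pluripotent cells, GFAP of astrocytes, MOG of oligodendrocytes, COL1A1 of mesenchyme and PECAM1 of endothelium were among the 17. By list, 7 of 16 genes of pluripotent cells had a level, 11 of 17 of neural progenitors, 16 of 20 of dividing cells, 8 of 12 of astrocytes and 6 of 11 of oligodendrocytes. The counts were 8 of 15 for mesenchymal cells, 2 of 10 for endothelium, 4 of 11 for epithelium and endoderm and 4 of 10 for neural crest and Schwann cells. None of the 12 microglia genes was in the table used here. The list medians ran from 0.740 TPM in endothelium to 10.9 TPM in pluripotent cells. Of the 129 genes, 17 averaged 10 TPM or more and 2 averaged 100 or more. At 10 TPM or more were 2 astrocyte genes, up to 43.2 TPM, and 1 oligodendrocyte gene, at 47.0 TPM. MKI67, a marker of dividing cells, had 0.157, 0.194 and 0.219 TPM. Among the 4 defining markers at 10 TPM or more were SOX2 of progenitors and pluripotent cells at 23.7 ± 1.60 TPM, CCNB1 of dividing cells at 13.4 ± 0.980 TPM and LIN28A of pluripotent cells at 12.7 ± 0.539 TPM.

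NES, nestin, an intermediate filament known from progenitors, had 737, 764 and 717 TPM, while VIM, which usually accompanies it, had 34.8, 37.1 and 36.3 TPM. THY1, also on the pan-neuronal list, averaged 158 ± 2.77 TPM. PCNA, of DNA replication and repair, averaged 95.3 ± 2.06 TPM. LIN28B, an RNA-binding protein of early development, averaged 51.6 ± 3.31 TPM, and CLDN6, a tight junction protein of embryonic epithelium, 20.4 ± 0.495 TPM.

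Ether lipid genes, the subject of the series, were of moderate level in the controls: 11 of 12 listed names had a level, with a median of 17.3 TPM. The listed name without a level, EPT1, is an older symbol of SELENOI, which is among the 11. PEDS1, the plasmalogen desaturase, had 26.4, 26.5 and 27.7 TPM, and GNPAT and AGPS, which start the pathway in peroxisomes, averaged 92.6 and 63.9 TPM.

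The spread between the 3 libraries was taken over the 11746 genes whose normalized counts averaged 100 or more, as the coefficient of variation (CV, SD over mean). The median CV was 4.86%, with quartiles of 3.07% and 7.64%, while the CV expected from the counting of reads alone has a median of 2.80%. The median fell with the count: 6.22% for genes between 100 and 1000, 4.18% between 1000 and 10000, and 3.45% above that. Genes between 10 and 100 had 16.04%, against 17.1% expected from counting alone. The counting values are expected SDs over means, and the median of CVs from 3 libraries lies below such a value. The 2 are therefore not like for like, and 16.04% does not show less spread than counting. A CV over 20% was found in 208 genes (1.77%). Without control replicate 3 the median CV was 2.95%.

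**Figure D5:**
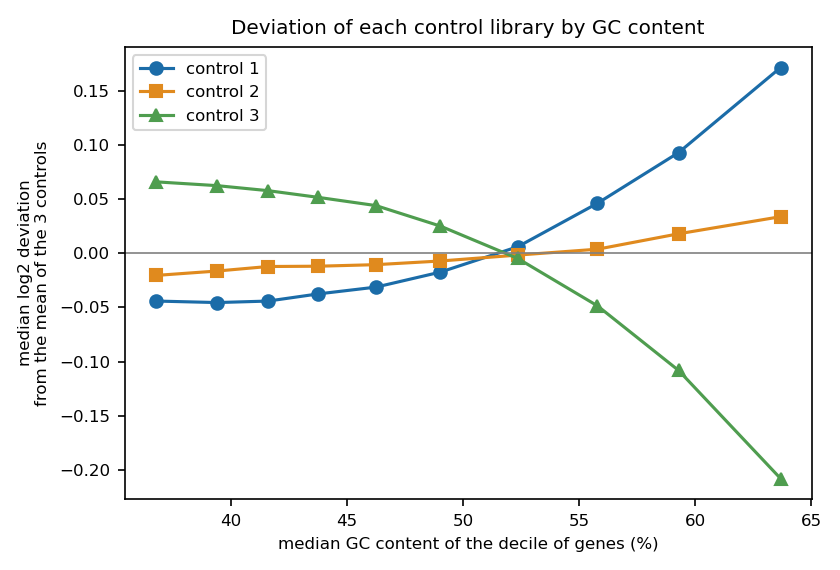
Median deviation of each control library from the mean of the 3 (log2 of normalized count + 1) in deciles of genes ordered by GC content of the transcript. In the highest decile control replicate 1 lies at 0.17, control replicate 2 at 0.03 and control replicate 3 at -0.21, and the order of replicates 1 and 3 is reversed in the low-GC deciles.

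The libraries deviated from each other along GC content. In the decile of genes with the highest GC content, 61.1% to 74.5%, the median log2 deviation was 0.17 in control replicate 1, 0.03 in control replicate 2 and -0.21 in control replicate 3. In the lowest decile it was -0.04, -0.02 and 0.07 in the same libraries. The median CV was 13.6% in the highest decile and 3.37% in the decile from 47.6% to 50.8% GC. Removing a cubic trend on GC content from each library gave a median CV of 3.26% over 11631 genes, against 4.84% before, and left 13 genes over 20%. What gave the libraries this trend was not tested. SLC18A3, GRIK5 and GRIN2D, named above, have 67.2%, 63.8% and 69.0% GC and lie in the highest decile. Their fall from control replicate 1 to control replicate 3 cannot be told apart from this trend. Control replicates 3 and 1 differed most, with a mean squared difference per gene of 15.3 times counting noise, against 3.26 for replicates 2 and 1 and 8.62 for replicates 3 and 2. With the GC trend removed these were 5.35, 2.04 and 3.91 in the same order. None of the 3 pairs agreed within counting noise, which does not show whether the libraries came from separate cultures.

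The 12 most variable genes all lie in that highest decile of GC content, and each was highest in control replicate 1 and lowest in control replicate 3. NEUROG3, a relative of NEUROG2 best known from the endocrine pancreas, had normalized counts of 798, 538 and 312, a CV of 44.3%. PCSK1N, an inhibitor of a peptide precursor protease, had 538, 435 and 236, a CV of 38.0%. AMH, the anti-Müllerian hormone gene, had 286, 239.8 and 131, and MIF, a cytokine gene, had 432, 313 and 235. The other 8 were CBARP, NME3, RPUSD1, COL6A2, ANTKMT, ZNF358, RTN4R and PIGQ. At the other end, FNDC5, the irisin precursor, had 2835, 2834 and 2838, and SLC25A4, a mitochondrial ADP/ATP carrier, had 3866, 3877 and 3873. Their CVs were 0.0625% and 0.141%, where counting reads alone gives 1.75% and 1.49%. They were picked as extremes among 11746 genes with 3 libraries each, so these CVs do not show that the genes vary unusually little.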

How the data were processed

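PolyA RNA of 3 control libraries was read from 500 ng of total RNA as stranded, single-end 100-base libraries, per the labels' protocols. The submitters' processing notes name STAR 2.7.10b, DESeq2 and GRCh38. How reads were counted, with which strand setting and annotation, is not stated in the labels. The deposited signal is each gene's read count after division by the library's size factor (0.918, 1.13 and 1.62 in control replicates 1, 2 and 3). In each library 100% of values were whole multiples of 1 step (tolerance 1e-06), so whole reads were recovered. Intervals for counting cover counting error only.

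Lengths were summed exons of GENCODE 29, matched by gene ID to 16051 of 16625 genes (96.5%). The 574 others held 0.288% to 0.294% of the normalized counts and have no TPM. Shared windows are exact 100-base matches on the same strand between the principal transcript and any transcript of another gene. Gene lists (52, with 998 genes, 793 with a level) and the 5 markers were chosen with earlier results of these data known. The named genes are the markers, the 20 highest by TPM and by count, up to 5 highest and the lowest of each list, members of receptor and channel families, defining markers, and the 12 largest and 6 smallest CVs. Some genes that this rule names are not reported here. There is 1 group, so no test between groups was made. edgeR 4.0.16 in R 4.3.3 gave a common dispersion of 0.00413 on the recovered reads, which is by that method's name a biological CV of 6.42%. The value includes the GC trend between the libraries and may be technical. The CV and GC trend steps were checked on simulated continuous values, and the length scaling and dispersion on simulated reads. Alternatives were other transcript lengths, a count minimum, other scalings, leaving out each library and, added after seeing the data, principal transcripts, a total without the mitochondrial genome and removal of the GC trend. Python 3.11.15 with pandas 2.3.3 was used.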

Additional observations from a re-analysis of the deposited data

How the results depend on the processing

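No paired analysis was possible because only 1 group is described and no result comes from a test between groups. The median CV was 2.95% to 5.47% with 1 library left out, lowest without control replicate 3, and 3.26% with the GC trend removed. The vesicular glutamate transporters summed to 384 TPM with longest transcripts, 326 with median transcript lengths, 345 with a mean count of 100 or more, 332 with principal transcripts and 389 without the mitochondrial genome in the total. The ribosomal protein share was 2.96%, 2.49%, 2.30%, 3.91% and 2.59% under the same 5 settings. The pan-neuronal median was 756 TPM with median transcript lengths, 471 with principal transcripts and 584 without the mitochondrial genome. With 1 library left out, the 2 transporters summed to 338 to 342 TPM, the ribosomal share was 2.26% to 2.27% and the pan-neuronal median was 501 to 521 TPM. Genes at 100 TPM or more numbered 2032 to 2034, receptor genes at 10 TPM or more 29 to 30, channel genes 45 to 46 and other cell type markers 17. The other 50 alternative values moved by less than the spread or, for counts and the median CV, by less than 1.5 times. The depth limits genes under 100 normalized counts, where the CV expected from counting alone has a median of 17.1%. The table lists genes with 10 or more reads in 3 or more of 6 libraries, so a gene outside it is not shown to be silent.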

Other observations

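Long noncoding RNAs were a small part of the polyA RNA of the control neurons. The 863 genes annotated as lincRNA held 0.967% of the summed level and the 915 annotated as antisense 0.823%. Ranking covered only genes with a symbol annotated as lincRNA, antisense or processed transcript (the genes below were named after their values were seen). SNHG29, a host gene of small nucleolar RNAs, was highest of them with 502, 525 and 547 TPM in control replicates 1, 2 and 3. MIAT, a noncoding RNA known from nervous tissue and heart, followed with 371, 372 and 344.2 TPM. NORAD, a noncoding RNA that binds Pumilio proteins, had 279, 291 and 308 TPM, highest in control replicate 3. MIR124-1HG, a host transcript of the neuronal microRNA miR-124, averaged 127 ± 6.16 TPM. SNX10-AS1, at 357 TPM, is an antisense gene, and as the labels do not say whether counting used strand, its reads and those of a partner gene cannot be told apart.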
